A study of Homo sapiens with 4 samples.

Results

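Open chromatin was followed at 9 genes for chaperones and co-factors of the endoplasmic reticulum (ER), read from peak lists: HSPA5, HSP90B1, HYOU1, DNAJB9, DNAJB11, DNAJC3, SDF2L1, CRELD2 and MANF. A peak was counted for a gene when its midpoint lay within 20 kb of the hg19 start site of that gene, and as a promoter peak when it lay within 2 kb. Peaks of the 4 lists that shared at least 1 bp were merged, which gave 31 regions in the 9 windows, of 78788 regions in all. The cells were wild-type HCT116, a human colorectal cancer line, and accessibility was read by ATAC-seq, where transposase inserts adapters into accessible DNA. The 2 tunicamycin libraries came from cells given 0.5 µg/ml tunicamycin for 6 h. The 2 DMSO libraries came from cells given 0.1% DMSO, the solvent, for 6 h. Each library was made from 50000 cells. The series describes the replicates as biological without naming separate cultures, so p-values concern these libraries only. Those from limma also draw on a spread pooled over all regions compared, so they do not measure the spread at 1 region alone. The question was how accessibility at these genes differs when the ER is stressed.

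The ER lumen holds the chaperones that fold secreted and membrane proteins. Tunicamycin blocks N-glycosylation, unfolded glycoproteins collect in the lumen, and the unfolded protein response then raises transcription of ER chaperone genes through the factors ATF6, XBP1 and ATF4. BiP, the product of HSPA5, is the main Hsp70 chaperone of the lumen and GRP94, the product of HSP90B1, its Hsp90 chaperone. HYOU1 is a large Hsp70-like protein that acts as a nucleotide exchange factor for BiP, and DNAJB9, DNAJB11 and DNAJC3 are J-domain partners of BiP. SDF2L1 forms a complex with DNAJB11, MANF is a secreted protein that binds BiP, and CRELD2 is a secreted ER protein induced by ER stress. ATF6 and XBP1 act through the ER stress response element (ERSE), CCAAT and CCACG with 9 bases between them, and a second form (ERSE-II), ATTGG and CCACG with 1 base between them.

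The promoter sequences are shown because they hold these elements. RefSeq (GRCh38.p14) gave a promoter for all 9 genes. The 250 bases before the annotated start follow for the 5 genes with an exact match to an ERSE or ERSE-II, 5′ to 3′ on the strand of the gene. Capitals mark the ERSE in HSPA5, HSP90B1 and CRELD2, the ERSE-II in SDF2L1 and HYOU1, and, in HYOU1, also TGACG followed by TGG, the unfolded protein response element (UPRE). In GRCh38.p14 they are chr9:125241344-125241593 on the minus strand for HSPA5, chr12:103930160-103930409 on the plus strand for HSP90B1, chr22:21642052-21642301 on the plus strand for SDF2L1, chr22:49918384-49918633 on the plus strand for CRELD2 and chr11:119057206-119057455 on the minus strand for HYOU1. All other positions are on hg19.
HSPA5: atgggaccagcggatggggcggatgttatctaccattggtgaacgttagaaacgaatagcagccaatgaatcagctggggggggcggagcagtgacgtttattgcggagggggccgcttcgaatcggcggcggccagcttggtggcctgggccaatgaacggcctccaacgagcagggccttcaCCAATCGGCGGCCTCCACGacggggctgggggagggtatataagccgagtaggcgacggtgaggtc
HSP90B1: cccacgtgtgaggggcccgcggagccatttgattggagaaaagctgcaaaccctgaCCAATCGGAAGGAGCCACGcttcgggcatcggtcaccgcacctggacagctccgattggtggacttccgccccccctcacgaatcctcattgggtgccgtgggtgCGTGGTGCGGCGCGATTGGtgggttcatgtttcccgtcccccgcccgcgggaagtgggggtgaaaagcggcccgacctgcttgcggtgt
SDF2L1: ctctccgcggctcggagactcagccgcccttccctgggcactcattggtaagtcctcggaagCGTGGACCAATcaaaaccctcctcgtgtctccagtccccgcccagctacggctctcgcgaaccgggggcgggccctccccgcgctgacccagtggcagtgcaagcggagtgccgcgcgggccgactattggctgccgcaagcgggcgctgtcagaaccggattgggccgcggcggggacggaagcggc
CRELD2: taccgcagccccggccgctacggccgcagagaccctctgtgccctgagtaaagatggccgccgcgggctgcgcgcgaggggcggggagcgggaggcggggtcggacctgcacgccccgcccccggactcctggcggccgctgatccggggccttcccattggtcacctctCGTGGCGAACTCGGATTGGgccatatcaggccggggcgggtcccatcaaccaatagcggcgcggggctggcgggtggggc
HYOU1: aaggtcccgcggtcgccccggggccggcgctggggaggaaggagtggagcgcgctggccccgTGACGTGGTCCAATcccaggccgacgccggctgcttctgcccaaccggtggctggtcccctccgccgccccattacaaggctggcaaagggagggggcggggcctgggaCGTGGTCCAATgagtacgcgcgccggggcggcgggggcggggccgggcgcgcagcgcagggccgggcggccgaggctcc

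Exact matches were sought on both strands of windows from 250 bases before to 50 after each RefSeq start. Windows of the 9 genes were 61.3 to 78.0% G and C, beside a median of 58.7% over all windows. The shares were not adjusted for this. An ERSE was found in 27 of 35116 such windows (0.0769%) and in 3 of the 9 genes. It began 66 bases before the start in HSPA5, 80 bases before it in CRELD2, and 194 and 89 bases before it in HSP90B1, which held 2. An ERSE-II was found in 19 of 35116 windows (0.0541%) and in 2 of the 9 genes, once in SDF2L1, 188 bases before the start, and at 2 places in HYOU1, 185 and 79 bases before the start. The upstream ERSE-II of HYOU1 overlapped its UPRE, a motif in 0.729% of windows. Each ERSE and ERSE-II holds CCACG, which 38.1% of windows and 8 of the 9 genes had, and CCAAT on one strand or the other, which 34.6% of windows and all 9 genes had. The cAMP response element CRE (TGACG followed by TCA) was in 1.85% of windows and the C/EBP-ATF element CARE (TGATG and AAT with 1 base between) in 0.991%, and neither was in a window of the 9 genes. A match describes the letters only, and copies of an element with a mismatch were not sought.

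The 4 lists were of similar size. They held 58467 and 62526 peaks in the tunicamycin libraries and 56581 and 56566 in the DMSO libraries, with a median summit of 15 and 16 reads in the tunicamycin libraries and 15 and 15 in the DMSO libraries. Read totals were not used here. The number of reads at a summit and the local background around it were recovered from the authors' fold and p-value of each peak. The smallest local background of any listed peak was 0.140 and 0.143 reads in the tunicamycin libraries and 0.140 and 0.147 in the DMSO libraries.

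Around the 9 genes most regions were shared by every library, and the one listed in both tunicamycin libraries alone lay at HSPA5. The windows held 27 and 26 peaks in the tunicamycin libraries and 23 and 24 in the DMSO libraries, or 26.5 ± 0.707 and 23.5 ± 0.707 (SD, n = 2 each). The groups did not overlap, and a two-sided exact permutation test gave p = 0.33, the smallest value that 2 libraries against 2 allow. The tunicamycin lists were also longer: as a share of its list each library had 0.0462% and 0.0416% of peaks in the windows after tunicamycin and 0.0406% and 0.0424% in DMSO, and the groups overlapped. In lists of equal length the difference in means was 0.5 peaks in place of 3, with an exact p of 1.0. The peaks covered 6586 and 7327 bp in the tunicamycin libraries and 5616 and 5976 bp in the DMSO libraries. The HSPA5 window accounted for 1484 and 1984 bp of this after tunicamycin, against 574 and 1012 bp in DMSO. Outside HSPA5, the SDF2L1 window held 9 and 7 peaks in the tunicamycin libraries and 7 and 7 in the DMSO libraries, and the CRELD2 window held 5 and 6 peaks in the tunicamycin libraries and 6 and 5 in the DMSO libraries.

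**Figure D1:**
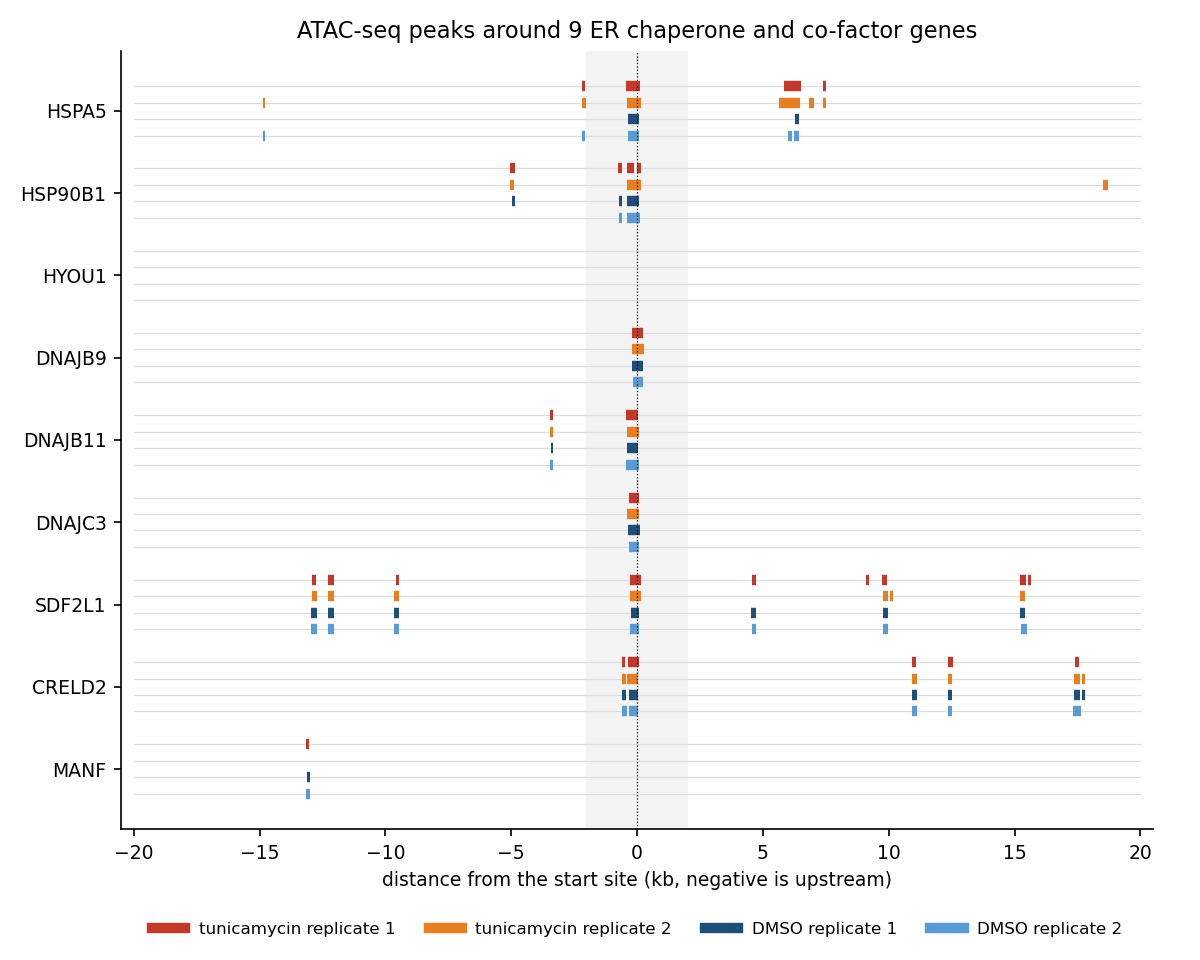
Position of every listed peak within 20 kb of the 9 start sites, with the distance from the start site in kb across (negative is upstream) and 1 row per library for each gene. Bars are peaks drawn to their width, and grey shading marks the 2 kb on each side of the start site. HSPA5 has peaks with midpoints between 6 and 8 kb downstream that are wider or more numerous in the tunicamycin rows, and HYOU1 has none.

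Of the 31 regions, 18 (58.1%) were listed in all 4 libraries, beside 51.3% of all 78788 regions. One region, downstream of HSPA5, was listed in the 2 tunicamycin libraries alone (3.23% of the 31, beside 3.65% of all regions). No region was listed in both DMSO libraries only, a pattern of 1.86% of all regions. These shares were near those of all regions. A further 5 regions were listed in 3 libraries (16.1%, beside 12.8% of all regions), 2 in 1 library of each group (6.45%, beside 8.07%) and 5 in a single library (16.1%, beside 22.3%). The single library was a tunicamycin library for each of these 5, as it was for 58.3% of all such regions. They were HSPA5 at 6.94 kb downstream, HSP90B1 at 18.6 kb downstream and SDF2L1 at 9.17, 10.1 and 15.6 kb downstream, with 17, 13, 9, 12 and 9 reads at their summits.

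A promoter peak was listed in every library for 7 of the 9 genes. For the other 2, no library listed a peak within 20 kb of HYOU1 or within 2 kb of MANF. The share of all genes with a promoter peak in every library was not counted, since no hg19 annotation was used. Whether 7 of 9 is high or low is therefore not known.

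HSPA5, the BiP gene, had the largest differences of the 9 genes, and they lay downstream of the start site. A region 6.07 kb downstream (chr9:127997113-127997974, hg19) was listed in every library. Its summit held 43 and 39 reads in the tunicamycin libraries, against 12 and 7 reads in the DMSO libraries. Its peaks were 666 and 846 bp wide after tunicamycin, against 149 and 330 bp in DMSO, where replicate 2 listed 2 peaks of 182 and 148 bp. Both tunicamycin libraries were above both DMSO libraries in each measure. The region lies on the side of the start site into which HSPA5 is transcribed, and HSPA5 is a short gene whose transcribed part ends in that direction. Without an hg19 annotation the region was not assigned to an exon or untranslated part.

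**Figure D2:**
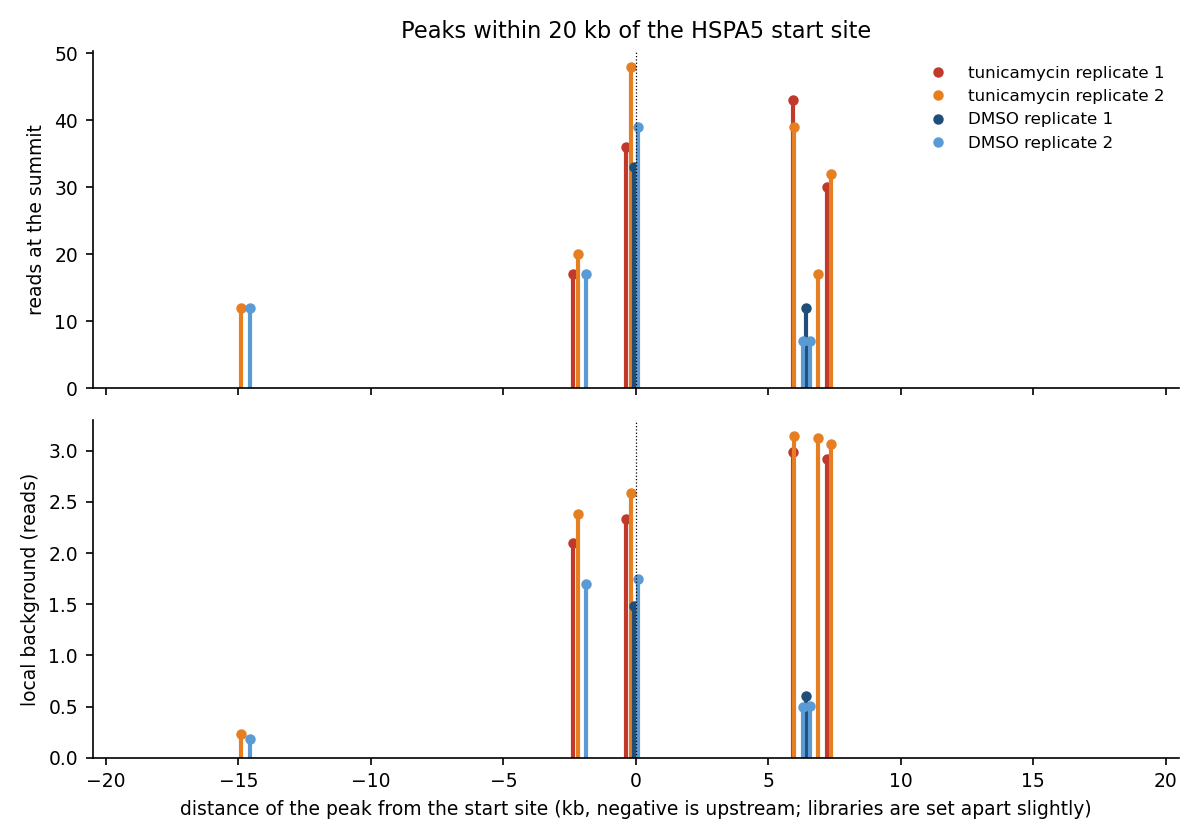
Reads at the summit (top) and local background in reads (bottom) of every peak within 20 kb of the HSPA5 start site, by distance in kb, with 1 colour per library and libraries set apart slightly. At the downstream sites the tunicamycin libraries reach 43 and 39 reads over a background of 2.99 and 3.14 reads, against 12 and 7 reads over 0.607 and 0.493 reads in the DMSO libraries.

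The local background, the level of reads around a peak against which the peak caller tests it, differed most. At this region it was 2.99 and 3.14 reads in the tunicamycin libraries, against 0.607 and 0.493 reads in the DMSO libraries, or 3.07 ± 0.104 and 0.550 ± 0.0807 (SD, n = 2 each), a ratio of means of 5.57. The log2 difference after centring each library on its median was 2.42 ± 0.0955 (SE), with a limma p adjusted over 40447 common regions of 4.87e-46. It had the smallest p and was the largest rise of those 40447 regions, the next being 1.61 and 1.50. It was called in each alternative setting that kept all 4 libraries, and the difference was 2.26 to 2.60 when 1 library was left out. Its adjusted limma p was 2.88e-155 with the replicate number as a block, and 0.00224 when the prior spread did not follow the mean. The size of these p-values thus depends on how limma pools the spread over regions. The background comparison was not planned and was chosen after seeing the data. The background takes in reads of nearby peaks, so it is not separate from their height and width, and the sources used here do not give the length over which it was taken.

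The −log10 q of the best peak, which sets its summit reads against that local background, was compared by rank. Among the common regions of its library, ordered by −log10 q, the downstream region lay at percentile 74.3 and 56.4 in the tunicamycin libraries, against 15.5 and 1.36 in the DMSO libraries. The difference was 2.02 ± 0.452 (SE) normal-score units, and its adjusted p in limma was 0.0527, which misses the 0.05 threshold. Alternative settings brought it under the threshold in 4 cases, among them the fit without DMSO replicate 1 (adjusted p = 0.00328), and ranking by the authors' fold gave 0.95 with an adjusted p of 0.727. At a −log10 q of at least 5 or at least 10 the region was not compared, since its best DMSO replicate 2 peak stood at 4.61. The folds, the authors' own values, were 11.0 and 9.66 in the tunicamycin libraries and 8.09 and 5.36 in the DMSO libraries. Width differed by 1.73 ± 0.385 on the log2 scale, with an unadjusted limma p of 0.00666 and an adjusted p of 0.617.

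**Figure D3:**
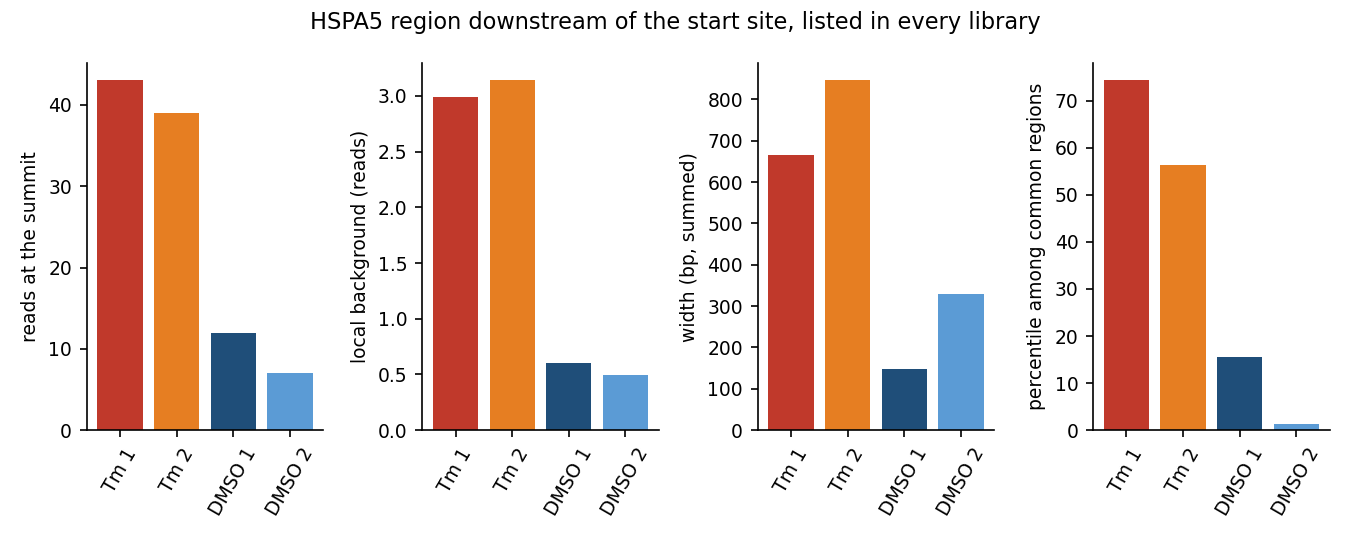
Reads at the summit, local background in reads, summed width in bp and percentile among common regions for the HSPA5 region 6.07 kb downstream of the start site, with 1 bar per library and tunicamycin (Tm) left of DMSO. In each panel both tunicamycin bars stand above both DMSO bars, by the smallest ratio in width, where they are 666 and 846 bp against 149 and 330 bp.

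The region listed only and always after tunicamycin lay next to it, 7.45 kb downstream of the HSPA5 start (chr9:127996092-127996224, hg19). Its summits held 30 and 32 reads over a local background of 2.91 and 3.06 reads, at percentile 55.8 and 56.0 of their own lists. Between these sites tunicamycin replicate 2 listed a further peak, 6.94 kb downstream, with 17 reads over a background of 3.12. A peak list does not show how many reads a library had where it lists no peak, so no fold is given for either.

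At the HSPA5 promoter (chr9:128003440-128004033, hg19) the summit held 36 and 48 reads in the tunicamycin libraries and 33 and 39 reads in the DMSO libraries, and the groups overlapped. The width was 556 and 548 bp after tunicamycin, against 425 and 438 bp in DMSO, a log2 difference of 0.33 ± 0.0846 with an unadjusted limma p of 0.0120 and an adjusted p of 0.678. The local background was 2.33 and 2.59 reads in the tunicamycin libraries, against 1.48 and 1.75 reads in the DMSO libraries. Its log2 difference was 0.55 ± 0.0849 with an adjusted limma p of 3.13e-06, and the adjusted p was 0.207 when the prior spread did not follow the mean. The percentile was 66.4 and 80.4 after tunicamycin and 74.5 and 81.6 in DMSO, a rank difference of −0.14 ± 0.311 with an adjusted p of 0.969, which turned to 0.075 without tunicamycin replicate 1.

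Farther from the gene the backgrounds of the groups lay closer together. The peak 2.12 kb upstream, missing from the list of DMSO replicate 1, had a background of 2.09 and 2.38 reads in the tunicamycin libraries and 1.70 in DMSO replicate 2. The peak 14.8 kb upstream had 0.236 reads in tunicamycin replicate 2 and 0.185 in DMSO replicate 2, and 12 reads at the summit in both. The nearest common regions outside the window lay 20.4 kb upstream and 40.9 kb downstream of the start, on the sides of the neighbouring genes GAPVD1 and RABEPK. Upstream the background was 0.687 and 0.838 reads in the tunicamycin libraries and 0.655 and 0.747 in the DMSO libraries, a log2 difference of 0.06 ± 0.124 with an adjusted limma p of 0.907. Downstream it was 0.970 and 1.19 reads in the tunicamycin libraries and 1.11 and 0.986 in the DMSO libraries, a difference of −0.02 ± 0.102 with an adjusted p of 0.962.

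At HSP90B1, the GRP94 gene, the promoter peak ranked lower in both tunicamycin libraries than in either DMSO library, short of the threshold. The summit (chr12:104323789-104324363, hg19) held 23 and 25 reads after tunicamycin, against 29 and 42 reads in DMSO. It lay at percentile 38.2 and 33.6 of the common regions in the tunicamycin libraries, against 62.9 and 87.1 in the DMSO libraries. The groups did not overlap, with the largest spread between the DMSO libraries. The rank difference was −1.09 ± 0.358, with an unadjusted limma p of 0.00318 and an adjusted p of 0.405. Without DMSO replicate 2 it was −0.67, with an unadjusted limma p of 0.144. The width was 454 and 544 bp after tunicamycin, in 2 peaks in replicate 1, and 470 and 511 bp in DMSO, and the local background was 1.52 and 1.77 reads after tunicamycin and 1.53 and 1.63 reads in DMSO, so both measures overlapped. A narrow peak 0.669 kb upstream was listed in 3 libraries, not in tunicamycin replicate 2, and one 4.96 kb upstream in 3 libraries, not in DMSO replicate 2.

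At SDF2L1 the promoter rank was also lower in both tunicamycin libraries, again short of the threshold, while the peak was wider. Its promoter summit (chr22:21996265-21996701, hg19) held 39 and 39 reads in the tunicamycin libraries, against 55 and 58 reads in the DMSO libraries. The percentile was 78.2 and 69.4 after tunicamycin, against 95.7 and 96.2 in DMSO. The rank difference was −1.11 ± 0.280, with an unadjusted limma p of 0.000183 and an adjusted p of 0.158, and it stood at 47 in the order of p-values over the 40447 regions. The width was 423 and 437 bp after tunicamycin, against 349 and 351 bp in DMSO, a log2 difference of 0.27 ± 0.0877 with an unadjusted limma p of 0.0283 and an adjusted p of 0.788. The local background was 1.93 and 2.10 reads in the tunicamycin libraries and 1.89 and 1.93 in the DMSO libraries, with an adjusted p of 0.968.

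The 3 J-domain partners of BiP each had a promoter peak in every library. At DNAJC3, whose product is also an inhibitor of the kinase PERK, the summit (chr13:96329002-96329504, hg19) held 39 and 47 reads in the tunicamycin libraries, against 51 and 55 reads in the DMSO libraries. The rank difference was −0.60 ± 0.267, with an unadjusted limma p of 0.0272 and an adjusted p of 0.612, and the unadjusted p was 0.116 without DMSO replicate 2. DNAJB9 (chr7:108210002-108210454, hg19) had 37 and 40 reads after tunicamycin and 45 and 44 reads in DMSO, a rank difference of −0.45 ± 0.280 with an adjusted p of 0.777. DNAJB11 (chr3:186288036-186288527, hg19) had 48 and 51 reads after tunicamycin and 41 and 53 reads in DMSO, so that the groups overlapped, and a rank difference of −0.10 ± 0.283 with an adjusted p of 0.977 that turned to 0.17 without DMSO replicate 2. Widths overlapped between the groups at all 3 promoters.

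The CRELD2 promoter (chr22:50311930-50312407, hg19) held 42 and 53 reads in the tunicamycin libraries and 50 and 61 reads in the DMSO libraries, and the groups overlapped. By percentile they did not, with 90.7 and 93.3 after tunicamycin, against 96.1 and 98.3 in DMSO. The rank difference was −0.53 ± 0.261, with an unadjusted limma p of 0.0475 and an adjusted p of 0.674. Without DMSO replicate 2 it was −0.35, with an unadjusted limma p of 0.286. The promoter width was 430 and 429 bp after tunicamycin, against 391 and 354 bp in DMSO. Its log2 difference was 0.18 ± 0.101 with an adjusted limma p of 0.884. A second, narrow region 0.509 kb upstream was also within 2 kb of the start and listed in every library. It ranked the other way from the promoter, at percentile 33.7 and 38.5 after tunicamycin, against 21.7 and 18.1 in DMSO. The rank difference was 0.49 ± 0.440 with an adjusted limma p of 0.873.

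**Figure D4:**
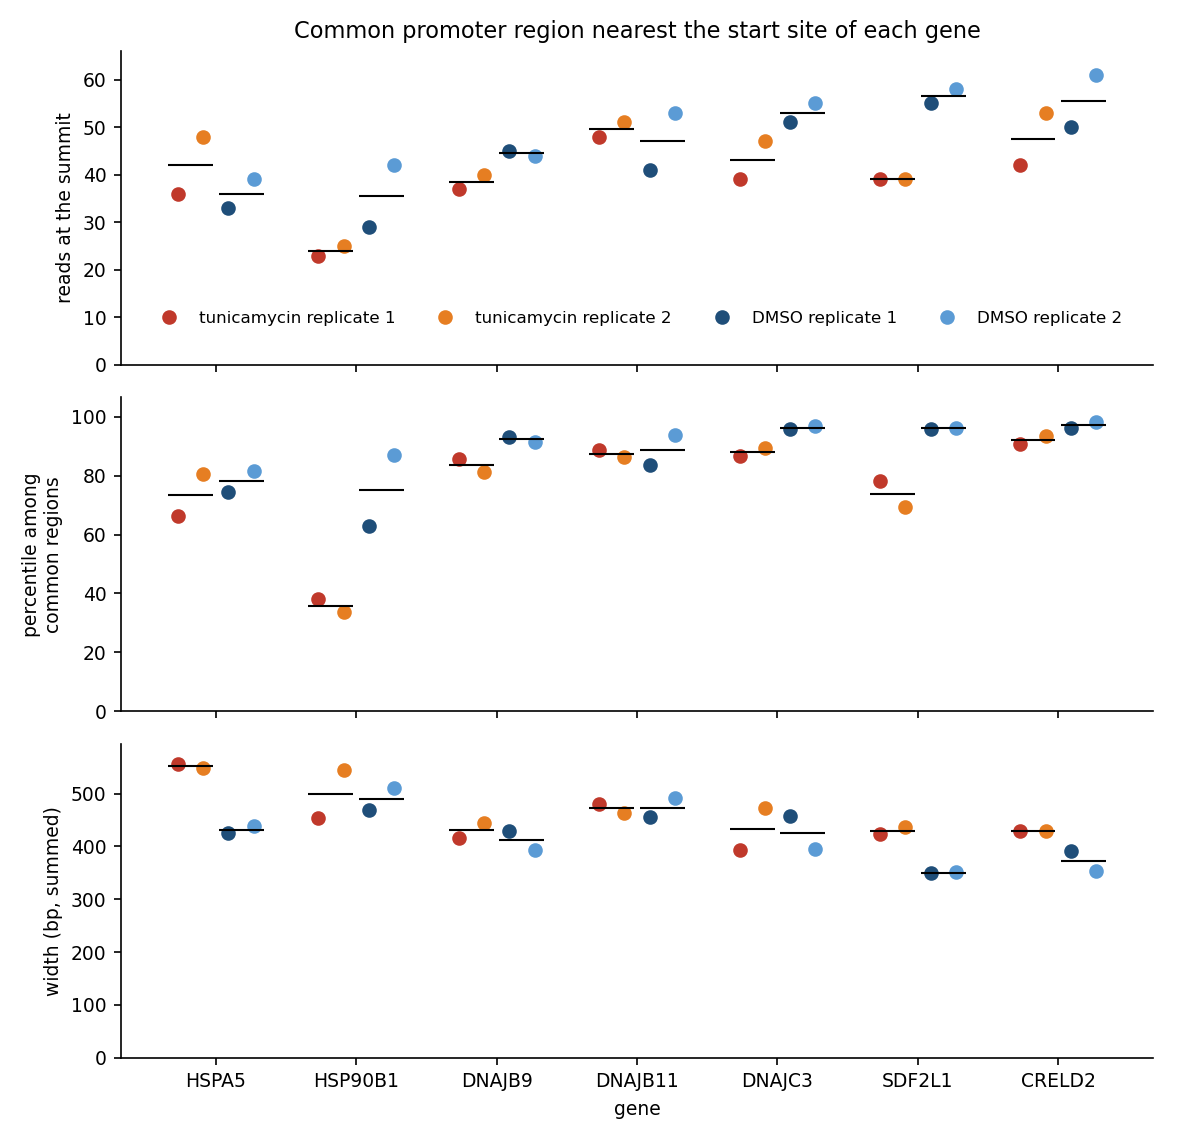
Reads at the summit (top), percentile among common regions (middle) and summed width in bp (bottom) of the common promoter region nearest the start site, for the 7 genes with one, with 1 point per library, tunicamycin left of DMSO, and a line at each group mean. SDF2L1 has 39 and 39 reads after tunicamycin against 55 and 58 in DMSO. HSPA5, SDF2L1 and CRELD2 have wider peaks in both tunicamycin libraries than in either DMSO library.

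HYOU1 and MANF lacked a listed promoter peak in every library. For HYOU1 (start at chromosome 11, 118927913, hg19) the nearest peaks lay 30659 bp upstream in tunicamycin replicate 1, between 38370 and 38393 bp upstream in the other 3 libraries, and between 100469 and 100474 bp downstream in the 4 libraries. The peak numbers on either side of the gap followed each other, so no numbered peak had been taken out between them. For MANF (start at chromosome 3, 51422668, hg19) the window held 1 narrow peak, 13.1 kb upstream, with 7 reads in tunicamycin replicate 1 and 6 reads in each DMSO library, and no peak in tunicamycin replicate 2. Beyond the window the nearest peaks lay 40.7 kb upstream in tunicamycin replicate 1 and both DMSO libraries, 40.8 kb upstream in tunicamycin replicate 2, and 249 kb downstream. The lists cannot tell a closed promoter from one that the authors' processing left without a peak, and the reason was not tested.

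The other common regions of the windows, none with an unadjusted p under 0.05 by rank or width, lay at DNAJB11, SDF2L1 and CRELD2. The DNAJB11 region 3.40 kb upstream had 25 and 22 reads in the tunicamycin libraries and 18 and 20 reads in the DMSO libraries, a rank difference of 0.27 ± 0.469 with an adjusted limma p of 0.958. The 3 upstream of SDF2L1, at 12.8, 12.2 and 9.55 kb, had 23 to 33 reads after tunicamycin and 14 to 25 reads in DMSO, and the one 15.4 kb downstream had 26 and 39 reads after tunicamycin and 30 and 34 in DMSO. The 3 downstream of CRELD2, at 11.0, 12.4 and 17.5 kb, had 14 to 34 reads after tunicamycin and 13 to 32 reads in DMSO. At a further one, chosen after its values had been seen, the local background was called higher after tunicamycin. This was 9.86 kb downstream of the SDF2L1 start (chr22:22006296-22006512, hg19), with 1.28 and 1.51 reads in the tunicamycin libraries, against 0.725 and 0.768 reads in the DMSO libraries. The log2 difference was 0.84 ± 0.103, with an adjusted limma p of 1.35e-09, or 0.109 when the prior spread did not follow the mean. Its summit held 44 and 69 reads in the tunicamycin libraries and 45 and 56 reads in the DMSO libraries, and the groups overlapped. At the SDF2L1 region 15.4 kb downstream the background was 0.804 and 1.15 reads after tunicamycin, against 0.765 and 0.715 reads in DMSO. Its adjusted limma p was 0.168. All remaining regions in this paragraph but the CRELD2 one 17.5 kb downstream had higher backgrounds in both tunicamycin libraries, none of them called. The share of all common regions with this pattern was not counted.

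By rank, limma called 0 of the 18 common regions of the windows. Over all 40447 common regions, 14 (0.0346%) were called higher after tunicamycin and 7 (0.0173%) lower. At an unadjusted p under 0.05 there were 5 of the 18, 1 higher (HSPA5 downstream) and 4 lower (the promoters of HSP90B1, SDF2L1, DNAJC3 and CRELD2), beside 7.33% of all common regions in either direction. Of the 8 common regions within 2 kb of a start site, 7 had a rank difference below 0, the nearest to the start of each gene, and 1 above 0, the second CRELD2 region. Their median was −0.49. The median over all common regions, 0.00, is held near 0 by ranking each library over the same regions. It is therefore no independent comparison, and common regions of similar rank or near other start sites were not compared. The sign of 2 of the 7, HSPA5 and DNAJB11, turned when 1 library was left out. Summit reads overlapped between the groups at these 2 and at CRELD2, and were lower after tunicamycin at HSP90B1, SDF2L1, DNAJC3 and DNAJB9. A rank sets summit reads against the local background, which was called higher after tunicamycin at the HSPA5 promoter. By width, 0 of the 18 and 0 of 40447 (0%) were called in limma, and 3 of the 18 had an unadjusted p under 0.05, beside 6.13% of all. By local background, 3 of the 18 were called and all 3 were higher after tunicamycin. They were the HSPA5 promoter, the HSPA5 downstream region and the SDF2L1 region 9.86 kb downstream. A background takes in reads of nearby peaks, so the 2 calls in the HSPA5 window may not be separate. Over all common regions 280 (0.692%) were called higher and 293 (0.724%) lower, or 223 higher and 76 lower without centring on the library median, which shifted the log2 difference by 0.06. At an unadjusted p under 0.05 there were 5 of the 18, beside 12.2% of all.

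**Figure D5:**
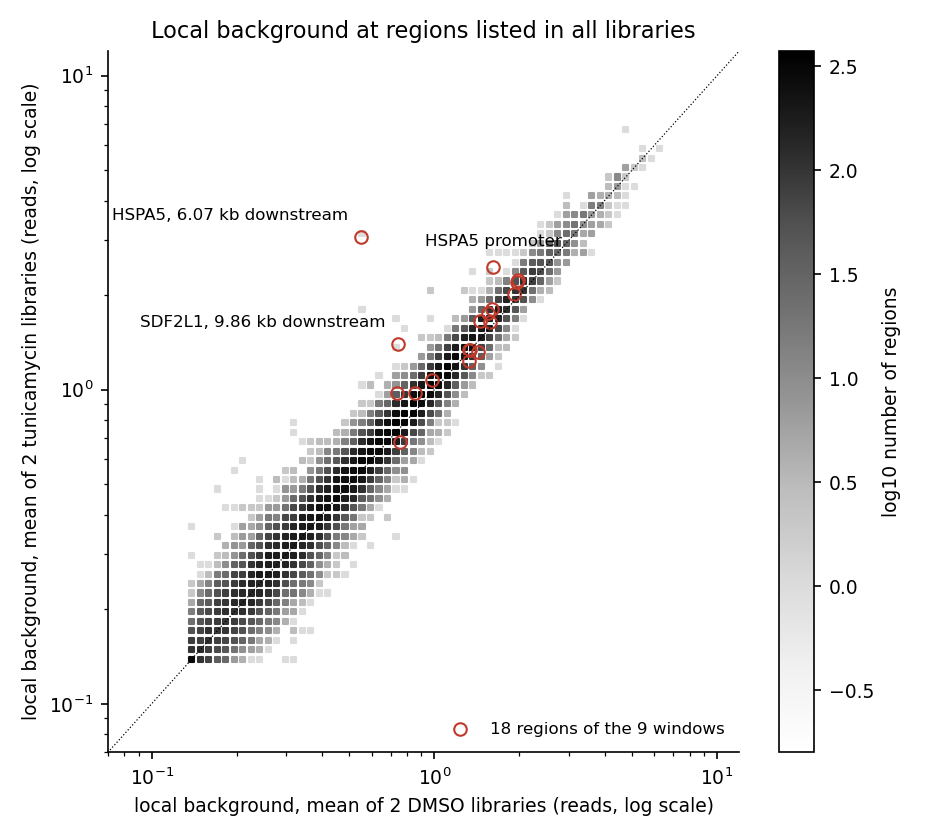
Mean local background of the 2 tunicamycin libraries (up) against that of the 2 DMSO libraries (across), in reads on log scales, at 40447 regions listed in all 4 libraries. Grey squares are bins shaded by the log10 number of regions, red circles are the 18 regions of the 9 windows, and the dotted line marks equal values. The HSPA5 region 6.07 kb downstream stands apart from the diagonal at 3.07 against 0.550 reads.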

How the data were processed

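ATAC-seq peak lists of 4 HCT116 libraries were used, grouped by their titles. Per the submitters' processing notes the tools included MACS2 2.2.7.1, Bowtie2 2.3.5.1 and Picard 2.18.23, with deepTools, SAMtools and Trim Galore, on hg19. No settings or shift for the transposase offset are stated there. One list per library was deposited by the authors, with each peak's position, a score, a fold (a ratio of summit reads to local background, each plus 1), −log10 p and −log10 q-values and the summit offset. Whole reads and the background were recovered from the fold and −log10 p for 100% of peaks (tolerance 0.001).

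Regions listed in all 4 libraries were compared with limma 3.58.1 (R 4.3.3; trended prior, Benjamini-Hochberg over all of them, threshold 0.05) on normal scores of the −log10 q rank, on log2 summed width and, added after the data were seen, on log2 local background, the last 2 centred on the library median. Where a library had several peaks in a region, the one with the best q-value gave reads, background and rank. Other steps used Python 3.11.15, pandas 2.3.3 and scipy 1.17.1. The limma comparisons, the merging of peaks and the recovery of reads and background were tested on simulated data. The window counts, the permutation test and the motif search were not. The members and lists were chosen with earlier results of these data known. Beyond the promoters, the text names each common region with an unadjusted limma p under 0.05 in the rank or width comparison. It also names each region listed in both libraries of 1 group only. Other regions of the windows are given outside this rule, and an SDF2L1 region was chosen after its background values had been seen. Markers of the cell type and other ER stress genes were not analysed here, since no hg19 annotation was used. Distances use hg19 starts and motif positions RefSeq starts, which can differ.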

Additional observations from a re-analysis of the deposited data

How the results depend on the processing

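Promoter peaks in every library at 7 genes and no called region in the width comparison held in every alternative run. The difference in number of peaks was above 0 in each alternative, at 2.0 to 11 peaks in all but lists of equal length, where it was 0.5 with an exact p of 1.0. Regions listed only and always after tunicamycin were 2 at a −log10 q of at least 10 and 4 in a 50 kb window, where 35 were listed in every library. Those listed only and always after DMSO were 1 at a −log10 q of at least 5 and 1 in lists of equal length. Leaving out 1 library gave 2 to 4 and 0 to 3. Rank calls were 0 higher and 0 lower with no trend in the prior or ranked by fold, 7 higher and 9 lower for peaks of at least 130 bp, and 5 higher and 5 lower at a −log10 q of at least 10. Without 1 library they were 0 to 28 higher and 2 to 11 lower. One region of the windows, HSPA5 downstream, was called by rank for peaks of at least 130 bp (adjusted p = 0.0236), with peaks up to 250 bp apart merged (adjusted p = 0.0349) and without DMSO replicate 1; without 1 library in turn 0 to 1 were called and its adjusted p was 0.00328 to 0.626. Without 1 library the rank difference of the HSPA5 promoter was −0.35 to 0.075, above 0 without tunicamycin replicate 1, and that of DNAJB11 was −0.37 to 0.17, above 0 without DMSO replicate 2. Background calls were 8 higher and 1 lower with no trend, with 1 region of the windows called, 223 higher and 76 lower without centring, and 122 to 212 higher and 116 to 270 lower without 1 library, when 3 to 4 regions of the windows were called. A library left alone in its group was assumed to vary like the other group.

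With the replicate number as a block, 19 regions were called higher and 16 lower by rank and 1 region of the windows was called (HSPA5 downstream, adjusted p = 0.0117), and 419 were called higher and 452 lower by background. Same-numbered libraries share only a number: the correlations of their deviations over 40447 regions were 0.0111 (rank), 0.00867 (width) and 0.0225 (background). The cause of these changes was not tested. Summits of 6 to 69 reads in the windows limit the precision, and 2 libraries per group limit every test.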
